A study of Bos taurus with 3 samples.

Results

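The 5 genes followed here were chosen by name, of 13574 in the table: GUCY2D and GUCY2F, which encode the photoreceptor membrane guanylate cyclases, GUCA1A and GUCA1B, which encode their calcium-sensing activators, and RCVRN, which encodes recoverin. All 5 were listed with a mean above 10 FPKM (fragments scaled to the length of the gene and the reads of its library), so no filter removed any of them. The libraries were made from retinas of cattle of mixed strain with no treatment or genotype in the labels, collected from 7 to 10 in the morning. There were 3 libraries in 1 group, each of poly(A) RNA from pooled total RNA, and the labels do not say how many animals a pool held.

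In rods and cones, cyclic GMP holds cation channels of the outer segment open, and light leads to its breakdown by a phosphodiesterase. The channels then close, calcium falls, and the calcium-free forms of the cyclase activators switch the guanylate cyclases on, so that cyclic GMP is made again. Recoverin belongs to the same family of calcium sensors but acts on another enzyme: in its calcium-bound form it holds back the rhodopsin kinase GRK1. The activators and recoverin are best known from work on bovine retina.

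Depth was read from the steps in the values, each worth 1 read, and 21661561, 23791493 and 28280148 reads lay on the listed genes in libraries 1, 2 and 3. Retina markers were present. A mean of 100 FPKM or more was reached by 7 of 7 measured rod, 4 of 8 cone and 4 of 6 Müller glia genes. It was also reached by 2 of 4 bipolar cell and 3 of 5 ganglion cell genes, beside 517 of all 13574 genes. None of 6 blood genes reached 1 FPKM, and HBA and HBB, the globins, had a listed value of 0. How globin reads were counted is not given in the sources used, so these 0 values do not show that blood was absent. The 6 pigment epithelium genes summed to 20.3, 11.3 and 9.17 FPKM in libraries 1, 2 and 3. The 6 lens genes summed to 21.0, 17.1 and 12.2 FPKM, so both sums were highest in library 1. Most of the lens sum was 1 gene, CRYBB1, with 17.5, 14.5 and 9.80 FPKM. Only 2 of the 6 lens genes reached a mean of 1 FPKM. Library 2 stood apart in XIST, which coats the silenced X chromosome of females, with 3 reads against 3987 and 3628 in libraries 1 and 3, and values without library 2 are therefore given below. With 1 group there was no contrast between conditions. SDs measure the spread among these libraries, in which technical variation and differences between animals cannot be told apart. In a whole retina, fewer cells of a type and less RNA per cell cannot be told apart.

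Of the cyclases, GUCY2D was the main form. GUCY2D had 100.0, 77.5 and 106 FPKM in libraries 1, 2 and 3, a mean of 94.5 FPKM ± 14.98 (SD, n = 3), which ranked 549 among all genes. Library 2 was the lowest, and libraries 1 and 3 lay close together. GUCY2F, the X-linked cyclase, had 10.7, 8.70 and 15.4 FPKM, a mean of 11.6 FPKM ± 3.44 (SD, n = 3) and rank 4771. Library 2 was again the lowest and library 3 was the highest, and no GUCY2F value came near the range of GUCY2D. GUCY2D held 89.2% ± 1.63 (SD, n = 3) of the summed FPKM of this pair. Within a library, GUCY2D stood 9.32-fold above GUCY2F in library 1 (95% exact interval of counting error 8.93 to 9.74), 8.91-fold in library 2 (8.50 to 9.34) and 6.88-fold in library 3 (6.66 to 7.10). The ratio in library 3 was thus below the others by more than counting error, while the direction was the same in 3 of 3 libraries. The reads carry no molecular identifiers and may be copies of 1 molecule, so these intervals cover counting error only.

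GUCY2F was not a gene at the limit of detection. It had 2338, 2019 and 4498 reads in libraries 1, 2 and 3, so that counting error came to 1.93% of its level on average, against a coefficient of variation of 29.6% between libraries. It was above 64.9% of the listed genes, and its mean lay above the median of all genes, 5.67 FPKM. How reads that match both cyclases were counted is not given in the sources used, so a small transfer of reads between these paralogs cannot be measured.

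The activator genes were far higher than the cyclases they act on. GUCA1B had 1503, 1366 and 1248 FPKM in libraries 1, 2 and 3, a mean of 1372 FPKM ± 128 (SD, n = 3) and rank 12 of all genes. It was the steadiest of the 5, with a coefficient of variation of 9.32%. GUCA1A had 748, 1045 and 627 FPKM, a mean of 807 FPKM ± 215 (SD, n = 3) and rank 18. Library 2 stood well above the others in GUCA1A, and without it the mean was 688 FPKM. GUCA1B exceeded GUCA1A in 3 of 3 libraries, 2.01-fold in library 1, 1.31-fold in library 2 and 1.99-fold in library 3, and it held 63.3% ± 5.78 (SD, n = 3) of their summed FPKM. The 2 activator genes are next to each other in the ARS-UCD2.0 assembly, and none of the 5 genes overlaps another listed gene there. GUCY2D and RCVRN each overlap a long noncoding RNA that is not in the table, and without known strand its reads cannot be told from theirs. In the listed FPKM, GUCA1A and GUCA1B moved differently across the libraries, since GUCA1A was highest in library 2 and GUCA1B in library 1. The highest library of GUCA1B changed once a trend with gene length was removed, as given below.

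Recoverin headed the set. RCVRN had 1578, 2008 and 1730 FPKM in libraries 1, 2 and 3, a mean of 1772 FPKM ± 218 (SD, n = 3) and rank 9 of all genes. Library 2 was the highest, and the lowest RCVRN value lay above the highest value of GUCA1B, 1503 FPKM. Within a library RCVRN exceeded GUCA1B 1.05-fold in library 1 (95% exact interval 1.04 to 1.06), 1.47-fold in library 2 and 1.39-fold in library 3. In library 1 the gap was therefore above counting error but smaller than the coefficient of variation of either gene between libraries, 12.3% for RCVRN and 9.32% for GUCA1B. Against the sum of GUCA1A and GUCA1B, RCVRN was lower in 3 of 3 libraries, with ratios of 0.701, 0.833 and 0.922.

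**Figure D1:**
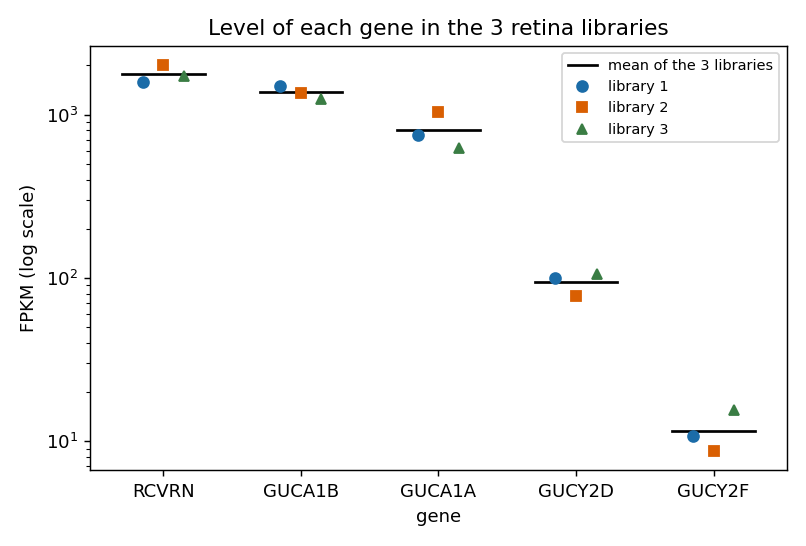
FPKM on a log axis of the 5 genes in each retina library (points) with the mean of the 3 libraries (black lines). The values of each gene lie apart from those of the next, from RCVRN at 1578 to 2008 FPKM down to GUCY2F at 8.70 to 15.4 FPKM.

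The order RCVRN, GUCA1B, GUCA1A, GUCY2D, GUCY2F held in each library, and the ranges of neighbours did not overlap in the listed FPKM. The narrowest step was that from RCVRN to GUCA1B, with a log2 ratio of 0.37 ± 0.26 (SD, n = 3), and it was the one closest to the spread between libraries. The step from GUCA1B to GUCA1A was 0.79 ± 0.35, that from GUCA1A to GUCY2D 3.06 ± 0.61 and that from GUCY2D to GUCY2F 2.94 ± 0.21 on the log2 scale of FPKM + 1. Without library 2 the means were 1654 FPKM for RCVRN, 1376 for GUCA1B, 688 for GUCA1A, 103 for GUCY2D and 13.1 for GUCY2F, in the same order. This order is one of levels per kilobase. As reads per gene, GUCA1B was above RCVRN in library 1, with 62936 against 59769 reads, because the listed GUCA1B gene is longer, at 1142 against 1033 bases.

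Summed, GUCA1A and GUCA1B had 2251, 2411 and 1875 FPKM in libraries 1, 2 and 3, and GUCY2D and GUCY2F had 110.7, 86.2 and 121 FPKM. The activators thus exceeded the cyclases 20.3-fold, 28.0-fold and 15.5-fold, a log2 ratio of 4.35 ± 0.43 (SD, n = 3). The ratio was highest in library 2, where the cyclases were lowest and GUCA1A was highest. It was lowest in library 3, where the reverse held. These are ratios of messenger RNA, and the protein levels were not measured.

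Recoverin was also set against its target. GRK1, the rhodopsin kinase, had 831, 671 and 651 FPKM in libraries 1, 2 and 3, a mean of 717 FPKM ± 98.7 (SD, n = 3). RCVRN exceeded GRK1 1.90-fold, 2.99-fold and 2.66-fold, a log2 ratio of 1.31 ± 0.34 in 3 of 3 libraries. RCVRN was highest in library 2 and GRK1 in library 1, so that the ratio was smallest in library 1. As reads per gene the ratio turned, to a log2 value of -0.12, since GRK1 is listed with 2774 bases. GRK7, the cone opsin kinase, had 16.4 FPKM ± 1.21, and adding it to GRK1 left the log2 ratio at 1.27 ± 0.33 (SD, n = 3). For each of the 10 ratios computed between these genes the direction was the same in 3 of 3 libraries. The exact two-sided sign-flip test over libraries gave p = 0.25 for each, also after Benjamini-Hochberg adjustment, which is the smallest value that 3 libraries allow, so that none could pass.

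**Figure D2:**
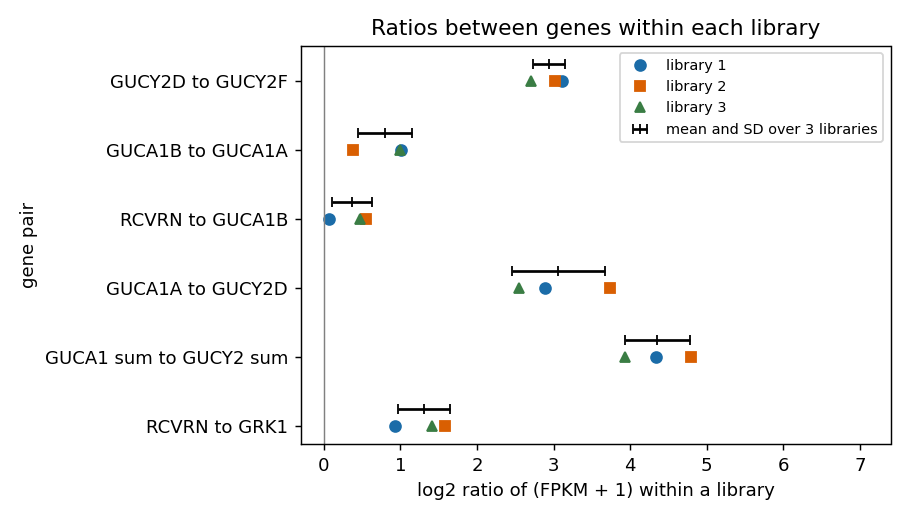
Log2 ratio of FPKM + 1 between the named genes within each library (coloured points), with the mean and SD over 3 libraries (black bars above the points). Every ratio is above 0, from 0.07 for RCVRN to GUCA1B in library 1 to 4.79 for the summed activators to the summed cyclases in library 2.

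The sensors were then read against the rest of their family. Recoverin and the activators belong to the neuronal calcium sensors, small proteins that bind calcium through EF-hand motifs and mostly carry a fatty acid at their N-terminus. Of 10 other listed family members 9 were measured, and all of them were lower than GUCA1A, GUCA1B and RCVRN in each library. By mean, 99.9% of all genes were also below each of these sensors. The highest was VSNL1, visinin-like protein, with 104, 114 and 97.2 FPKM, a mean of 105 FPKM ± 8.30 (SD, n = 3). RCVRN stood 16.7-fold, GUCA1B 12.9-fold and GUCA1A 7.47-fold above it on the scale of FPKM + 1. HPCAL1 and HPCA, hippocalcin and its relative, followed with 41.5 FPKM ± 6.69 and 31.3 FPKM ± 3.74, and the potassium channel partner KCNIP2 had 30.6 FPKM ± 4.31. NCALD, neurocalcin, had 25.4 FPKM ± 3.59, and KCNIP1, HPCAL4, KCNIP4 and KCNIP3 ranged from 5.67 to 10.6 FPKM. GUCA1A, GUCA1B and RCVRN together held 93.7% ± 0.350 (SD, n = 3) of the summed FPKM of the 12 measured family members. The share was 93.5%, 94.1% and 93.4% in libraries 1, 2 and 3.

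Other calcium-binding proteins of the retina were also lower. CALB2, calretinin of amacrine and ganglion cells, came closest with 393, 504 and 400 FPKM, and GUCA1A exceeded it 1.83-fold (log2 0.88 ± 0.21, SD, n = 3) in 3 of 3 libraries. CABP5 of bipolar cells had 203 FPKM ± 34.2, and CABP4, a regulator of the photoreceptor calcium channel, had 74.8 FPKM ± 11.7 (SD, n = 3). S100B, a glial calcium-binding protein that stimulates the photoreceptor cyclase in vitro, had 238, 226 and 186 FPKM in libraries 1, 2 and 3. Its mean of 216 FPKM lay between those of GUCA1A and GUCY2D. Over the 31 other measured genes on the lists of cyclases, of genes with GUCA names and of calcium-binding proteins, all 31 were below RCVRN, GUCA1B and GUCA1A in every library. Of all genes 99.9% had a mean below each of these 3, so the count is near that of all genes. By its mean GUCY2D had 5 of the 31 above it, and GUCY2F had 18. Of all genes 96.0% were below GUCY2D and 64.9% below GUCY2F. The median of the 9 other calcium sensors was 25.4 FPKM, that of the 14 other calcium-binding proteins 59.2 FPKM and that of all genes 5.67 FPKM.

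**Figure D3:**
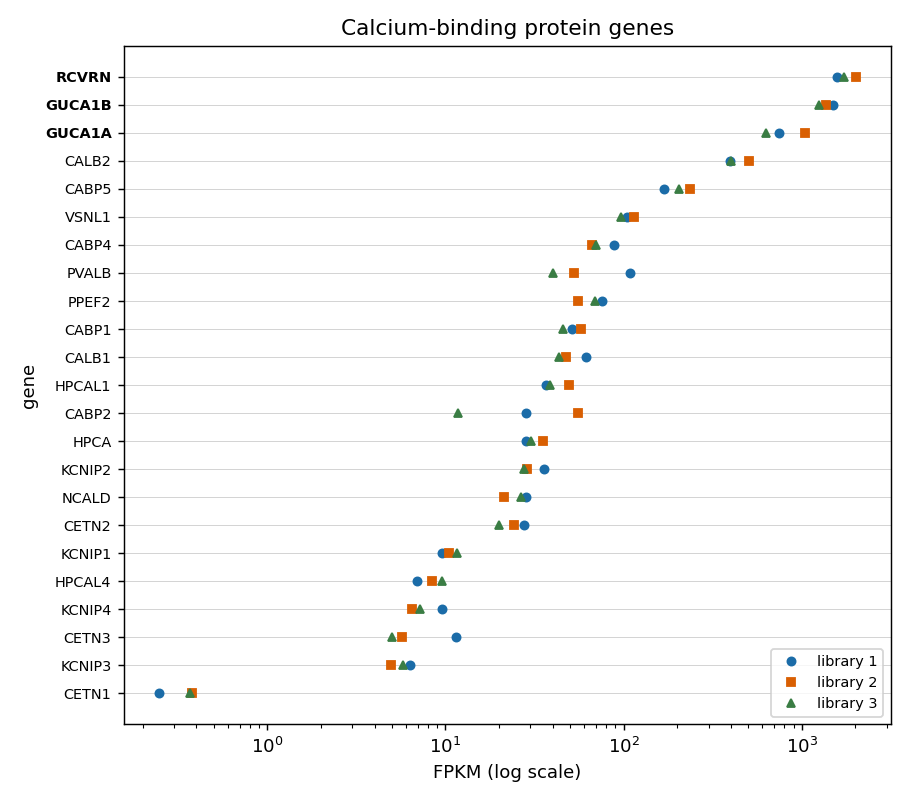
FPKM on a log axis of RCVRN, GUCA1B and GUCA1A (bold) and of other measured calcium-binding protein genes in each library (points), ordered by mean. The 3 photoreceptor sensors lie above the others shown in each library, with CALB2 at 393 to 504 FPKM next below GUCA1A.

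GUCA is also the name of genes outside the eye. GUCA2A and GUCA2B encode guanylin and uroguanylin, peptide hormones of the gut that activate the cyclase GUCY2C from outside the cell. GUCA2A had 3, 1 and 9 reads in libraries 1, 2 and 3, at or near a floor of 3 reads in the first and second library, and GUCA2B was listed at 0 in each. Their receptor GUCY2C had 0.716, 1.30 and 1.20 FPKM. GUCA1C, the third activator of the photoreceptor cyclases known in human, and GUCA1ANB were not analysed here.

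Among the guanylate cyclase genes GUCY2D led as well. The soluble cyclase that nitric oxide activates is made of an alpha and a beta subunit, and its beta subunit gene GUCY1B3 had 38.6, 44.4 and 41.4 FPKM, a mean of 41.5 FPKM ± 2.87 (SD, n = 3). GUCY2D exceeded it 2.23-fold and GUCY2F was 3.44-fold below it, each in 3 of 3 libraries. The alpha subunit genes GUCY1A3 and GUCY1A2 had 6.66 FPKM ± 1.5 and 0.774 FPKM ± 0.255. Of the receptors for natriuretic peptides, NPR2 had 11.1, 10.3 and 8.98 FPKM and NPR1 had 0.194 FPKM ± 0.0305. NPR2 and GUCY2F did not differ beyond the spread between libraries, since the log2 ratio of GUCY2F to NPR2 was 0.15 ± 0.50 (SD, n = 3) and GUCY2F was the higher in 1 of 3 libraries. GUCY2D and GUCY2F held 90.1% ± 2.08 of the summed FPKM of the 5 measured membrane cyclases, and 63.5% ± 4.84 of that of all 8 measured cyclase genes (SD, n = 3).

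The cyclases make cyclic GMP from GTP, and the enzymes that supply it were on the list. IMPDH1, which sets the pace of guanine nucleotide synthesis and is the retinal form of its enzyme, had 262, 325 and 304 FPKM, a mean of 297 FPKM ± 32.0 (SD, n = 3). It exceeded GUCY2D 3.13-fold in 3 of 3 libraries, while RCVRN stood 5.95-fold above it with a log2 ratio of 2.57 ± 0.061. The relative IMPDH2 had 48.4 FPKM ± 6.38 and GMPS, the GMP synthetase, 4.21 FPKM ± 1.07. GUK1, the kinase that returns GMP to the nucleotide pool, had 190 FPKM ± 38.9, and NME2 and NME1, which make nucleoside triphosphates, had 90.3 FPKM ± 20.0 and 86.0 FPKM ± 17.6. IMPDH2 and GUK1 overlap other listed genes in ARS-UCD2.0, as do HPCA, KCNIP1, PDE6A and SLC24A1, and strand use is not given, so these values may hold reads of a neighbour.

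Genes that use cyclic GMP or answer to calcium completed the loop. GUCY2D was below the rod channel subunits CNGA1 and CNGB1 in 3 of 3 libraries, with CNGA1 2.03-fold and CNGB1 1.35-fold higher. The step to CNGB1 was a log2 difference of -0.43 ± 0.27 (SD, n = 3). The rod exchanger SLC24A1, which removes calcium from the outer segment, was 1.44-fold above GUCY2D, also in 3 of 3 libraries, with a difference that ranged from -0.76 to -0.10 on the log2 scale. The rod phosphodiesterase subunit PDE6A, whose product breaks down what the cyclase makes, stood 6.58-fold above GUCY2D. GUCA1B was 2.20-fold above PDE6A, with a log2 ratio of 1.14 ± 0.092 that varied less between libraries than that of GUCA1A to PDE6A, 0.34 ± 0.33 (SD, n = 3). PDE6G, the inhibitory subunit, was above all 5 genes in each library and exceeded RCVRN 2.85-fold.

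The cone forms of these genes lay on either side of GUCY2F. PDE6H, the inhibitory subunit of the cone phosphodiesterase, had 466, 94.4 and 313 FPKM in libraries 1, 2 and 3 and was 19.6-fold above GUCY2F. SLC24A2, the cone exchanger, had 8.79, 9.25 and 16.2 FPKM in libraries 1, 2 and 3, with its highest value in library 3, as GUCY2F had. The log2 ratio of GUCY2F to SLC24A2 was 0.038 ± 0.19 (SD, n = 3) with GUCY2F higher in 1 of 3 libraries, so they did not differ beyond the spread. PDE6C, the catalytic subunit of the cone phosphodiesterase, was 1.81-fold above GUCY2F and CNGA3, the cone channel subunit, 2.30-fold below it, each in 3 of 3 libraries. These levels do not show in which cells GUCY2F was expressed.

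**Figure D4:**
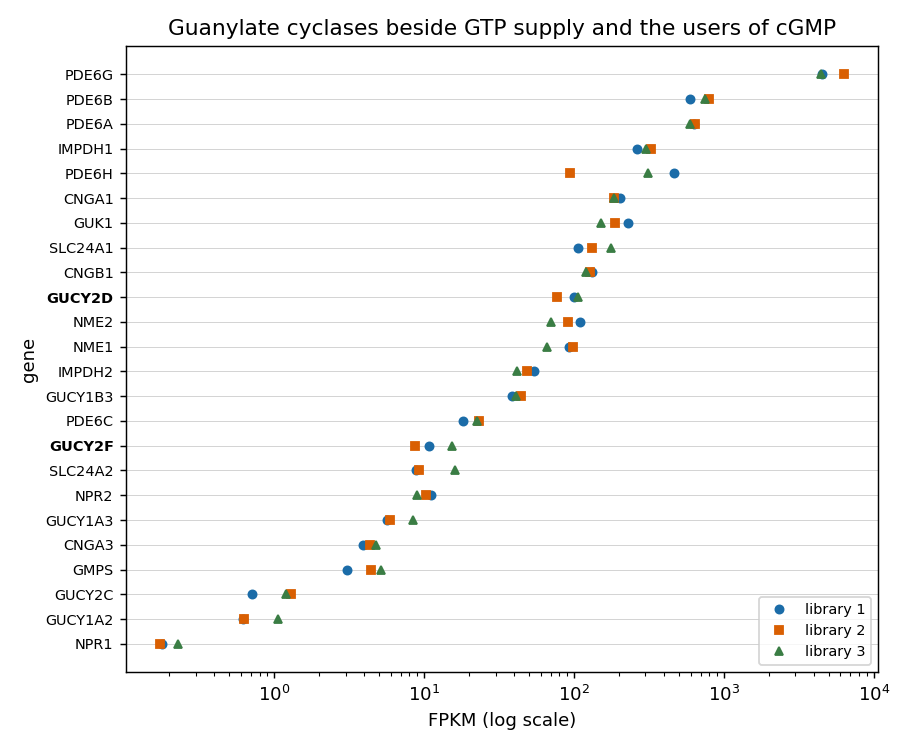
FPKM on a log axis of GUCY2D and GUCY2F (bold), the other measured guanylate cyclases, the GTP supply enzymes and the users of cyclic GMP in each library (points), ordered by mean. GUCY2D at 77.5 to 106 FPKM lies just below CNGB1, and GUCY2F at 8.70 to 15.4 FPKM lies beside SLC24A2 and NPR2.

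The libraries were compared for each gene. The SD of log2(FPKM + 1) between libraries was 0.13 for GUCA1B, 0.18 for RCVRN, 0.24 for GUCY2D, 0.37 for GUCA1A and 0.38 for GUCY2F, beside a median of 0.19 over the 9599 genes whose mean reached 1 FPKM. GUCY2F and GUCA1A spread more than 89.4% and 88.4% of those genes, and GUCA1B more than 30.4% of them. Over the 517 genes whose mean reached 100 FPKM, which include the sensor genes, the median was higher, at 0.25. Counting error was below 1% of the level for every one of the 5 except GUCY2F. Between libraries 2 and 3, 2 of 5 genes differed at least 1.5-fold on FPKM + 1, a difference that 7.42% of all tested genes reached. These were GUCY2F, 1.69-fold higher in library 3, and GUCA1A, 1.67-fold higher in library 2. None of the 5 differed that much between libraries 1 and 2, where 9.24% of genes did, or between libraries 1 and 3, where 12.3% did. With libraries scaled to equal summed FPKM or by median ratio size factors, 1 of 5, GUCY2F, also passed between libraries 1 and 3, beside 10.9% and 10.8% of all tested genes. Between libraries 2 and 3, equal summed FPKM left the count at 2 of 5, beside 9.83% of all tested genes, but changed its members. GUCA1A, with 993 and 677 FPKM in libraries 2 and 3, then fell short. GUCY2D, with 73.7 and 114 FPKM there, passed beside GUCY2F, so the call of GUCA1A depended on the scaling. Each such comparison sets 1 library against 1, so there is no replicate check and no test.

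Gene length moved with these differences. Among 828 genes of 900 to 1200 bases, the length of the sensor genes, the median deviation from a gene's own mean was 0.15 in library 1, 0.042 in library 2 and -0.22 in library 3 on the log2 scale. Among 458 genes of 4500 to 6000 bases, the length of the cyclase genes, it was -0.031, -0.076 and 0.11. Short genes were thus low in library 3 and long genes were high there. GUCA1A and GUCA1B deviated in library 3 by -0.33 and -0.13, and GUCY2D and GUCY2F by 0.18 and 0.41. RCVRN deviated there by -0.028, against a median of -0.23 for 500 genes of like length.

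With that length trend subtracted, none of the 5 genes differed 1.5-fold between libraries 2 and 3 or between libraries 1 and 3, where 5.93% and 6.49% of all tested genes did. Between libraries 1 and 2 it was 1 of 5 genes, GUCA1A with 657 and 1001 FPKM, beside 8.38% of all tested genes. The sum of the activators to the sum of the cyclases then came to 17.9-fold, 25.9-fold and 19.4-fold in libraries 1, 2 and 3. Library 2 thus kept the highest ratio, while the gap between libraries 1 and 3 narrowed and changed sides. In library 2 GUCA1A still deviated by 0.34, RCVRN by 0.15, GUCY2D by -0.21 and GUCY2F by -0.27 on the log2 scale. RCVRN then had 1415, 1952 and 2026 FPKM in libraries 1, 2 and 3, so that its highest library moved from 2 to 3. It deviated by -0.32 in library 1 and by 0.20 in library 3. Its 1415 FPKM in library 1 lay below the 1426 FPKM of GUCA1B in library 3, so their ranges then overlapped. The highest library of GUCA1B moved from 1 to 3, with 1368, 1328 and 1426 FPKM in libraries 1, 2 and 3. That of GUCY2D moved from 3 to 1, with 102, 80.7 and 98.7 FPKM. Without that subtraction, the 7 measured rod markers had a median deviation of -0.046, 0.16 and -0.036 in libraries 1, 2 and 3. For all genes whose mean reached 1 FPKM it was 0.058, -0.0073 and -0.044. Of the 7 rod markers 6 were highest in library 2, PDE6A by only 638 against 636 FPKM in library 1. The share of all genes highest in library 2 was not counted. The Müller glia and ganglion cell markers also had their highest median deviation in library 2, at 0.10 for each list. There, though, only 3 of 6 Müller glia and 1 of 5 ganglion cell markers had their highest value. The cone and bipolar cell lists had their highest median deviation in library 3, at 0.10 and 0.065, against 0.096 and -0.031 in library 2. Of these markers, 4 of 8 for cones and 2 of 4 for bipolar cells were highest in library 2. The part of these lists in the values of GUCA1A, RCVRN and the cyclases in library 2 was not tested, nor was that of the difference in XIST.

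**Figure D5:**
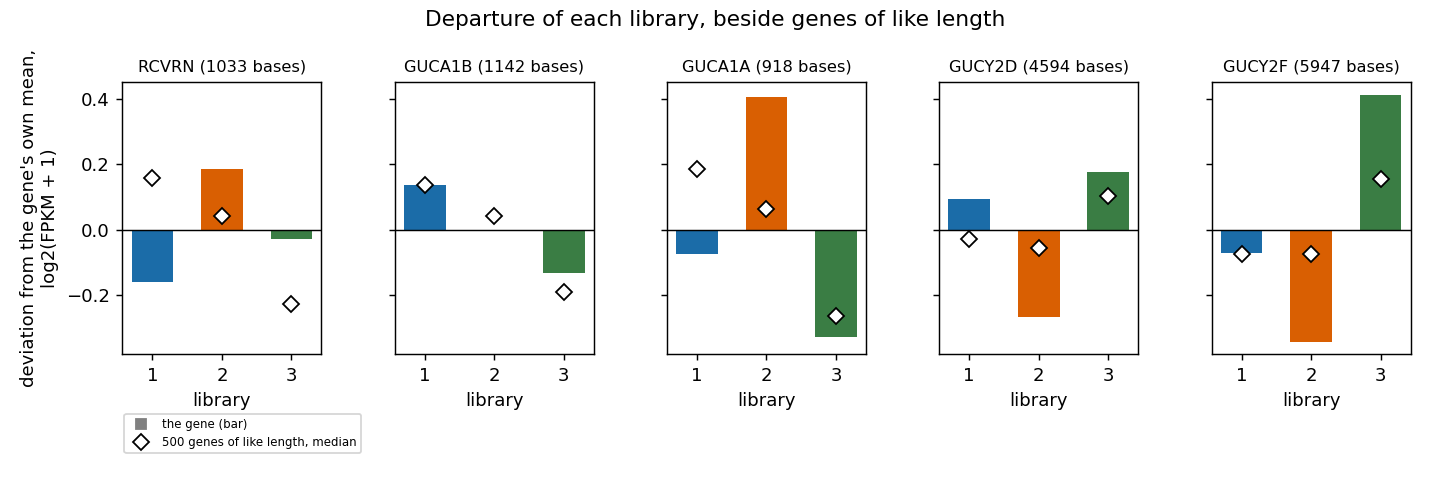
Deviation of each library from the gene's own mean of log2(FPKM + 1) for the 5 genes (bars, 1 per library) beside the median deviation of 500 genes of like length (diamonds). In library 3 the diamonds are negative for the short sensor genes and positive for the long cyclase genes. In library 2 the bars of RCVRN, GUCA1A, GUCY2D and GUCY2F reach beyond the diamonds.

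The genes closest to each of the 5 in level over the 3 libraries were found by the root mean square difference of log2(FPKM + 1), as a description of likeness over 3 libraries. For RCVRN they were GNB1 at a difference of 0.077, ROM1 at 0.13 and PRPH2 at 0.26. GNB1 had 1511, 2089 and 1858 FPKM and so ran through the libraries in the same order as RCVRN. For GUCA1B they were SFRP2, ENO1 and ROM1, at 0.22 to 0.39, and for GUCA1A GRINA, GNAS and RPS2, at 0.16 to 0.31. For GUCY2D they were DGCR2, NEURL and GPM6B, at 0.096 to 0.12, and for GUCY2F DIP2C, FEM1B and LARGE, at 0.066 to 0.077. Each of these 6 was lowest in library 2 and highest in library 3, as the cyclase it was matched to. The matching used these same values, so it favours a shared order of libraries, which is no separate finding.

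Together the 5 genes held 1.19%, 1.33% and 1.25% of the summed FPKM of libraries 1, 2 and 3, a mean of 1.26% ± 0.0660 (SD, n = 3). RCVRN alone held 0.478%, 0.591% and 0.579%, and GUCY2D 0.0303%, 0.0228% and 0.0354%. The median of the 5 was 807 FPKM.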

How the data were processed

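Per the file headers, the authors deposited FPKM values per gene and library with a gene length. CASAVA 1.8.1, GSNAP and HTSeq are named in the submitters' processing notes. Their settings, the build, the annotation and the use of strand are not given in the sources used. Per the labels' protocols, random primers were annealed to 400 to 450 ng of poly(A) RNA and cDNA fragments were about 200 bp long. Columns were tied to libraries by replicate number, and 0 columns of samples were unused.

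Reads were recovered from FPKM times length, whole within 0.1 reads in 100.0% of values up to 2000 reads. FPKM denominators were 36656987, 39011741 and 49102476 reads. The floor of 3 reads is 0.0818, 0.0769 and 0.0611 FPKM for a gene of 1 kb. Ratios were taken within a library on log2(FPKM + 1), which understates the change of low genes. With 1 group there was no contrast for a count model. Intervals are 95% exact ones. Genes named could come from the 5 members, 8 lists (52 of 61 genes measured, not all of them printed) and the 3 nearest genes to each member. Members and lists were chosen with earlier results of these data known. RD3, RD3L, NCS1, CABP7, PPEF1, GUCY1B2 and CNGB3 were not analysed here, and 1 list gene that counts in lists and medians is not reported here. Of the symbols 12453 matched ARS-UCD2.0, which was used only for names and neighbours. Alternatives were other scalings, pseudocounts, reads without length, removal of the length trend and leaving out each library. The code was tested on simulated data. Tools were Python 3.11.15, numpy 2.4.6, pandas 2.3.3, scipy 1.17.1 and matplotlib 3.10.9.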

Additional observations from a re-analysis of the deposited data

How the results depend on the processing

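Of 112 alternative values 104 stayed within the spread between libraries (for counts, within 1.5-fold). Many of them could not have left it. Leaving out 1 of 3 libraries cannot move a mean by as much as the SD. Ranks cannot change when only genes below 1 FPKM are dropped. The order of the 5 genes held in every library under each scaling, under removal of the length trend and without each library. Of these, only removal of the length trend could have changed that order. With the trend removed, the ranges of RCVRN and GUCA1B overlapped. Without division by length the log2 ratio of RCVRN to GRK1 turned from 1.31 to -0.12, since the gene lengths differ. The other log2 ratios that moved with it were GUCY2D to GUCY2F at 2.68, GUCA1A to GUCY2D at 0.75 and the summed activators to the summed cyclases at 2.21, all in the same direction as before. The count of genes at least 1.5-fold apart between libraries 1 and 3 rose from 0 to 1 under equal summed FPKM and under median ratio size factors, where 10.9% and 10.8% of all tested genes were that far apart. With the length trend removed, an alternative chosen after seeing the data, that count went from 0 to 1 between libraries 1 and 2 and from 2 to 0 between libraries 2 and 3. Equal summed FPKM shifted the median of all genes in library 3 by 0.10 (log2), or by 0.12 without the 10 highest genes. No paired analysis was possible because there is 1 group. With 3 libraries, the spread between libraries and not depth limits these values.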
